A study of Mus musculus with 10 samples.

Results

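The trend of DNA methylation over the dietary ratio of n-3 to n-6 fatty acids was followed across 3 diets in mouse brain. All 10 arrays of the series entered it. They came from left hemibrains of mice of the inbred strain C57BL/6j, all male, that were put on a diet at 3 weeks of age and kept on it for 24 weeks. The standard lab diet (STD) had an n-3:n-6 ratio of 1:6 and 3 arrays, the balanced diet (BLD) a ratio of 1:1 and 3 arrays, and the enriched diet (ERD) a ratio of 7:1 and 4 arrays. The diets were designed with equal calories, and STD is the usual laboratory food against which the others are set. The label of every array ends in the word CONTROL, whatever the diet. Each label also carries a number of its own, but nothing in the labels says that each array is a separate animal. The p-values therefore reflect only how these samples vary, which may be partly technical. The hemibrain was taken whole, so a changed mix of cell types and a change within a cell type cannot be told apart.

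Each diet entered as the log2 of its ratio, which is -2.58 for STD, 0 for BLD and 2.81 for ERD. A slope is thus the change in the methylation measure for each doubling of n-3 relative to n-6. The units followed were 9041 regions, groups of at least 3 neighbouring probes at CpG islands that were well above background on all 10 arrays. With no such filter 13835 regions formed. Probes were filtered before they were grouped, so the 9041 are not a subset of these. The 9041 regions held a median of 4 probes and spanned a median of 558 bp. Coordinates follow mm9, the mouse build named in the file headers. Genome sequence and gene models of that build were not used here, so no gene is named, no sequence is shown, and the tissue was not checked against cell type markers. "Rising" and "falling" below mean only the sign of a slope over the ratio.

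n-3 and n-6 polyunsaturated fatty acids are essential fats that mammals take from food and that share the enzymes which lengthen and desaturate them. Docosahexaenoic acid of the n-3 series and arachidonic acid of the n-6 series are built into the membranes of neurons and glia. DNA methylation places a methyl group on cytosine, in mammals mostly at CpG dinucleotides. CpG islands are CpG-rich stretches that often overlie promoters and are mostly free of methylation, although a minority are methylated, among them islands on the inactive X chromosome of females and at imprinted genes. In MeDIP-chip, an antibody against 5-methylcytosine pulls down methylated fragments, which are hybridised together with total input DNA. The measure here is the log2 ratio of pulled-down over input signal, centred on the median of its array and scaled to a common spread, so 0 is the typical probe of an array and not an absence of methylation.

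The arrays lay in pairs on 5 slides. ERD filled 2 slides and BLD and STD 1 slide each, and the remaining slide held BLD replicate 3 and STD replicate 1. Diet and slide therefore cannot be told apart except on that slide. No 2 arrays were duplicates, the closest pair having a Pearson r of 0.838 over regions. STD replicate 3 and STD replicate 1 stood apart, with mean correlations to the other 9 arrays of 0.468 and 0.518 against 0.588 to 0.723 for the other 8. STD replicate 3 also had the lowest share of probes well above background, 76.4%. Pairs of STD arrays had a mean r of 0.529, below the means of STD with BLD arrays (0.580) and with ERD arrays (0.552). Some of the results below are also given without STD replicate 3, and fewer without STD replicate 1.

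No region passed the test for a trend. Of the 9041 regions, 0 (0%) had an adjusted p under 0.05, and the lowest value, shared by a rising and a falling region, was 0.102 (limma, Benjamini-Hochberg). Without adjustment, 1280 regions (14.2%) were under 0.05, of which 610 (6.75%) had a rising and 670 (7.41%) a falling slope. Over all regions the median slope was 0.0015 per doubling and 52.0% of slopes were positive. Arrays were centred on their medians, which removes a drift common to all regions, so these values do not bear on one. The median standard error of a slope was 0.0204. The 1280 regions had a median slope size of 0.0557, which goes with a median difference between ERD and STD of 0.303 on the log2 scale. The share under 0.05 was 7.95% without STD replicate 3 and 20.5% without STD replicate 1. With STD replicate 1 left out, 5 regions passed the adjusted threshold, and with ERD replicate 2 left out 3 did.

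The arrays of STD and ERD did not overlap in 1264 regions (14%), a set that follows closely from the same contrast and is given as a description. A complete order of all arrays, with STD, BLD and ERD each separate from the next, was much rarer. It was found rising in 4 regions (0.0442%) and falling in 12 (0.133%).

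The rising region with the lowest p lay at chr18:36020156-36020383 and held 3 probes in 228 bp. Its log2 ratio was 0.01, -0.26 and -0.27 on the 3 STD arrays, 0.41, 0.40 and 0.07 on the BLD arrays, and 0.46, 0.54, 0.57 and 0.72 on the ERD arrays. The diets did not overlap, and the mean was below the array median in STD and above it in ERD. Its slope was 0.135 ± 0.021 (SE, n = 10; adjusted p = 0.102, limma). The 3 probes shared the direction but not the size, with slopes between 0.032 and 0.307 per doubling. The middle probe, the steepest, went from -1.21 in STD through -0.38 in BLD to 0.45 in ERD.

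A region of 3 probes at chr11:97000071-97000343 had 0.10, 0.01 and -0.14 in STD, 0.22, 0.58 and 0.02 in BLD, and 0.69, 0.65, 0.47 and 0.82 in ERD. ERD lay above STD on every array, while BLD overlapped both. On the slide with both diets BLD was below STD, at 0.02 against 0.10, the direction opposite to the slope. The slope was 0.125 ± 0.023 (SE, n = 10; adjusted p = 0.151, limma).

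At chr2:3336223-3336412 all diets were below the array median. STD gave -0.69, -0.97 and -0.76, BLD gave -0.47, -0.37 and -0.42, and ERD gave -0.21, -0.45, -0.17 and -0.26. BLD was clear of STD on every array but overlapped ERD. The slope was 0.097 ± 0.019 (SE, n = 10; adjusted p = 0.151, limma).

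The steepest rising slope of all 9041 regions, 0.156 ± 0.033 (SE, n = 10; adjusted p = 0.179, limma), belonged to 3 probes at chr7:52968623-52969012. The arrays read 0.16, 0.10 and -0.45 in STD, 0.41, 0.64 and 0.16 in BLD, and 0.56, 1.10, 0.49 and 0.98 in ERD. The arrays of each diet varied widely, with SDs from 0.242 in BLD to 0.338 in STD, but ERD and STD did not overlap. On the slide that held both diets, BLD and STD were equal at 0.16.

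The 10 rising regions with the lowest p had 3 or 4 probes each and differed between ERD and STD by 0.45 to 0.85. They were chosen for their p, so their separation is a description. In 8 of them every probe had a rising slope. All probes shared 1 sign in 48.5% of the 1280 regions under an unadjusted 0.05 and in 15.3% of all regions. In 4 of them all diets lay below the array median, and in 5 the STD mean was below it and the ERD mean above. The 4 are regions of low methylation signal in which the signal was less low under ERD.

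**Figure D1:**
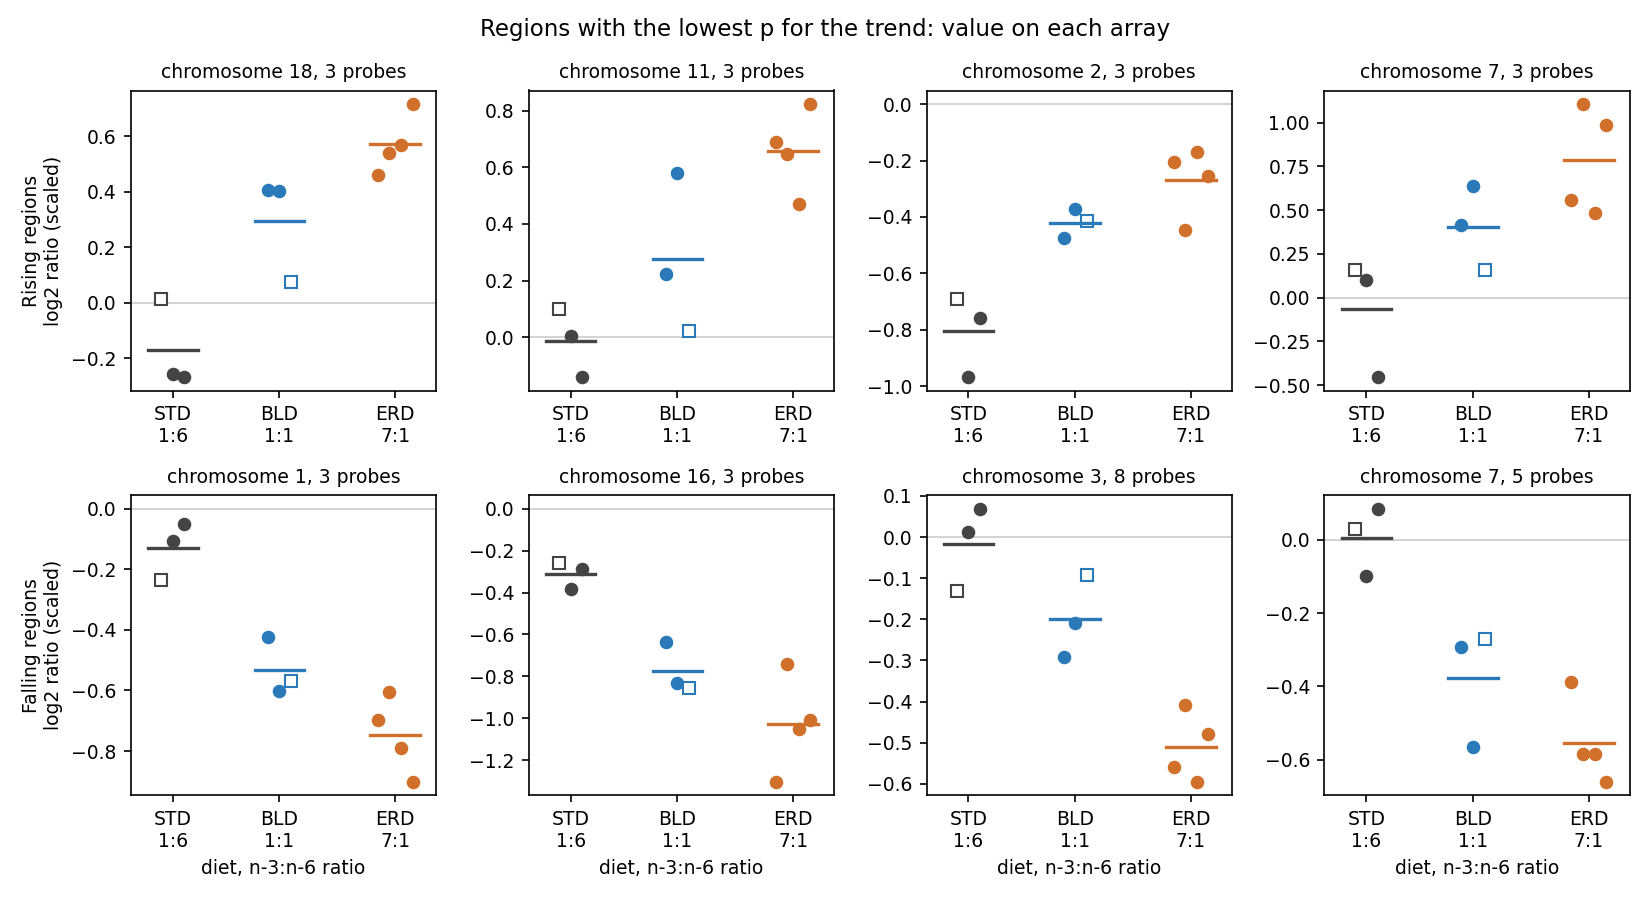
Log2 ratio (scaled, vertical axis) on each array for the 4 rising regions (top) and 4 falling regions (bottom) with the lowest p, by diet; the horizontal axis is log2 of the dietary ratio. Bars are diet means, and open squares are the 2 arrays of the slide that held both BLD and STD. The BLD mean lies between the other diets in all 8 panels.

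Falling slopes were led by 3 probes at chr1:182781059-182781462. STD gave -0.24, -0.11 and -0.05, BLD gave -0.42, -0.60 and -0.57, and ERD gave -0.70, -0.60, -0.79 and -0.90. The diet groups did not overlap at full precision, although the highest ERD array and the lowest BLD array are equal as printed. The slope was -0.112 ± 0.018 (SE, n = 10; adjusted p = 0.102, limma).

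At chr16:56029499-56029920, 3 probes had the steepest slope among the falling regions of lowest p, -0.130 ± 0.022 (SE, n = 10; adjusted p = 0.127, limma). The values were -0.26, -0.38 and -0.29 in STD, -0.63, -0.83 and -0.85 in BLD, and -1.30, -0.74, -1.05 and -1.01 in ERD. STD was separate from both other diets, which overlapped each other. On the slide with both diets BLD was lower than STD by 0.593, the same direction as the slope. Both of these arrays entered the fit that gave the slope. Of the 24 regions named by rule, 14 had their slope's sign on that slide and the others did not.

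The falling region with the most probes among these was chr3:106838896-106840111, with 8 probes over 1216 bp. STD gave -0.13, 0.01 and 0.07, BLD gave -0.29, -0.21 and -0.09, and ERD gave -0.56, -0.41, -0.59 and -0.48. All 8 probes had a falling slope, from -0.157 to -0.020 per doubling, and the region's slope was -0.093 ± 0.016 (SE, n = 10; adjusted p = 0.141, limma). BLD and STD overlapped, and most of the difference lay between BLD and ERD. On the slide with both diets BLD was above STD, at -0.09 against -0.13, the direction opposite to the slope. The largest probe-level step between STD and BLD was at the fifth probe, from 0.27 to -0.69, while the first probe stayed at 0.04 and 0.02 and then dropped to -0.70 in ERD.

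A region of 5 probes at chr7:148379981-148380535 had 0.03, -0.10 and 0.08 in STD, -0.29, -0.57 and -0.27 in BLD, and -0.39, -0.58, -0.58 and -0.66 in ERD. All 5 probes had a falling slope. Here STD was separate from both other diets, unlike the 8-probe region on chromosome 3. The slope was -0.101 ± 0.019 (SE, n = 10; adjusted p = 0.151, limma).

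At chr19:6984035-6984523, 6 probes gave -0.30, -0.24 and -0.22 in STD, -0.44, -0.29 and -0.45 in BLD, and -0.58, -0.74, -0.68 and -0.73 in ERD. ERD was separate from both other diets. The slope was -0.081 ± 0.015 (SE, n = 10; adjusted p = 0.151, limma), and all 6 probes shared its sign. With no filter on background the region overlapping this one had a slope of 0.0020.

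At chr2:181414879-181415364, 4 probes gave 0.01, 0.06 and 0.19 in STD, -0.36, -0.20 and -0.03 in BLD, and -0.58, -0.21, -0.72 and -0.60 in ERD. Their steps were almost even, -0.110 per doubling from STD to BLD and -0.118 from BLD to ERD.

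The steepest falling slope of all regions, -0.183 ± 0.059 (SE, n = 10; adjusted p = 0.229, limma), was at chr9:122075655-122076150. STD gave 0.98, 2.51 and 2.33, BLD gave 0.89, 0.80 and 1.35, and ERD gave 0.55, 1.19, 0.61 and 1.24. This slope rests on STD replicates 2 and 3, which share a slide, while STD replicate 1 lay within the range of BLD and ERD. Over fits without 1 array, the slope ran from -0.248 to -0.125. It also depended on the processing, at -0.075 with no scaling (adjusted p = 0.447, limma), -0.108 after quantile normalization and -0.0033 with normexp correction.

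Of the 10 falling regions with the lowest p, all had ERD means below the array median, 6 were below it in every diet, and 4 crossed it from STD to ERD. They had 3 to 8 probes, and in 9 of them every probe had a falling slope. Differences between ERD and STD ran from -0.72 to -0.43.

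The size and the adjusted p of these regions moved with the processing. The chromosome 18 region had an adjusted p of 0.0363 with arrays left unscaled, 0.0449 after quantile normalization and 0.0466 after loess (limma). The leading chromosome 1, 16 and 19 regions had 0.0186, 0.0433 and 0.0433 unscaled (limma). With normexp background correction the slope of the chromosome 18 region was 0.073 and those of the chromosome 1, 16 and 19 regions -0.016, -0.020 and -0.018 (adjusted p = 0.988 for each, limma), and all 24 named slopes shrank by over 1.5 times or turned. The chromosome 18 slope was also smaller with the median of the 3 probes, 0.069 (adjusted p = 0.268, limma), and with the slide as a fixed block, 0.023 (adjusted p = 0.900, limma). In the fits without 1 array, the highest adjusted p of each of the 24 regions named by rule came to between 0.514 and 0.617, reached without STD replicate 3 (limma).

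The steps between neighbouring diets were compared per doubling of the ratio. Among the 1280 regions under an unadjusted p of 0.05, BLD lay between STD and ERD in 1071 (83.7%), against 36.7% of all 9041. The slope's own direction favours this, so the share is a description. In the rising regions the median step was 0.071 from STD to BLD and 0.047 from BLD to ERD, and the first was the larger in 61.5%. Falling regions had medians of -0.057 and -0.054, with the first the larger in 53.0%. Over all 9041 regions the median steps were 0.0074 and -0.0047. That offset favours a larger first step in rising regions and a smaller one in falling regions.

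Departure from a straight line was tested as the distance of the BLD mean from the line between STD and ERD. An adjusted p under 0.05 was found in 0 regions (0%), with a lowest value of 0.563 (limma). Without adjustment 746 regions (8.25%) were under 0.05, with BLD above the line in 430 and below it in 316. BLD was also above the line in 55.1% of all regions, with a median departure of 0.0168. The lean toward BLD above the line is therefore not particular to the 746. Of the 746, 63 also had a trend under 0.05. None of the 24 named regions was under 0.05 for departure.

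The slide that held both BLD replicate 3 and STD replicate 1 allowed diets to be compared within 1 slide. The trend was fitted to the other 8 arrays, and the difference between BLD and STD on the slide was set beside it. In those 8 arrays 1703 regions (18.8%) were under an unadjusted p of 0.05, and in 91.2% of them BLD minus STD had the sign of the slope. The choice of regions by their slope in the same 8 arrays largely fixes that share. On the shared slide 471 (27.7%) had it, against 3666 (40.5%) of all 9041 regions. BLD was above STD on that slide in 22.4% of the 919 rising regions, in 66.2% of the 784 falling regions and in 51.4% of all regions. The within-slide difference thus ran against the trend of the other arrays more often than with it. It rests on 1 array of each diet and has no replicate, and STD replicate 1 is one of the arrays that stood apart. Whether slide, array or diet sets this difference was not tested. Of the 24 named regions, fitted with that slide included, 14 had the slope's sign on it, beside 54.8% of all regions under an unadjusted 0.05 in the fit to 10 arrays.

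**Figure D2:**
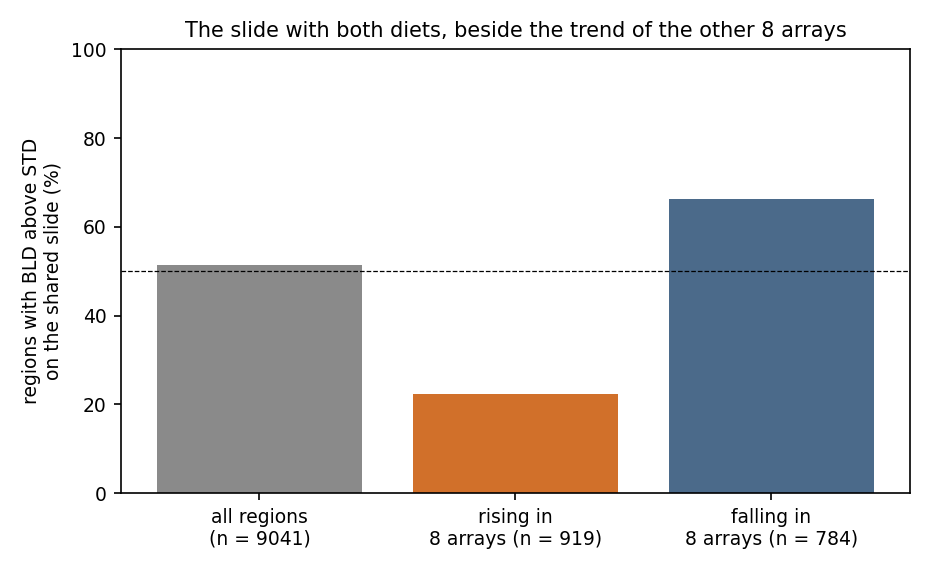
Share of regions (percent, vertical axis) in which BLD replicate 3 was above STD replicate 1 on the slide that held both, for all 9041 regions and for those with a rising or falling trend at unadjusted p under 0.05 in the other 8 arrays. The dashed line marks 50%. The rising regions lie at 22.4% and the falling ones at 66.2%.

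The within-array spread of log2 ratios was lowest on average in STD. Spread can grow with how sharply the pull-down separates methylated from unmethylated fragments and with noise, which were not told apart. Before scaling, the median absolute deviation (MAD) was 0.258, 0.237 and 0.161 on the STD arrays, 0.346, 0.296 and 0.177 on the BLD arrays, and 0.349, 0.329, 0.341 and 0.290 on the ERD arrays. ERD lay above STD on all arrays, and BLD overlapped both. The slope was 0.020 per doubling, with an exact permutation p of 0.0307 and 0.0768 after adjustment over the 5 measures tested per array. It therefore did not pass, although without BLD replicate 3 it did (exact permutation, adjusted p = 0.0357). Without STD replicate 3 the slope was 0.0154 (exact permutation, adjusted p = 0.236). On the shared slide the order was the reverse, 0.177 for BLD and 0.258 for STD. The share of probes well above background (exact permutation p = 0.148, adjusted 0.247) and the median Cy3 and Cy5 signals (exact permutation p = 0.281 and 0.706, adjusted 0.351 and 0.706) did not pass either.

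Chromosome X, of which males carry a single copy that is not inactivated, was represented by 225 regions. The median log2 ratio of these regions minus that of the autosomes was 0.124, 0.128 and 0.023 on the STD arrays, 0.145, 0.119 and 0.080 on the BLD arrays, and 0.178, 0.195, 0.145 and 0.143 on the ERD arrays. It was above 0 on every array, and ERD lay above STD without overlap. The slope was 0.0140 per doubling, with an exact permutation p of 0.0243 and 0.0768 after adjustment, so it missed the threshold. Without STD replicate 3 it was 0.0088 (exact permutation, adjusted p = 0.236), and without BLD replicate 3 it was 0.0136 (adjusted p = 0.0357). It was 0.0226 with no scaling (exact permutation, adjusted p = 0.075) and 0.0038 with normexp background correction (adjusted p = 0.351). On the shared slide BLD was lower than STD, 0.080 against 0.124.

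**Figure D3:**
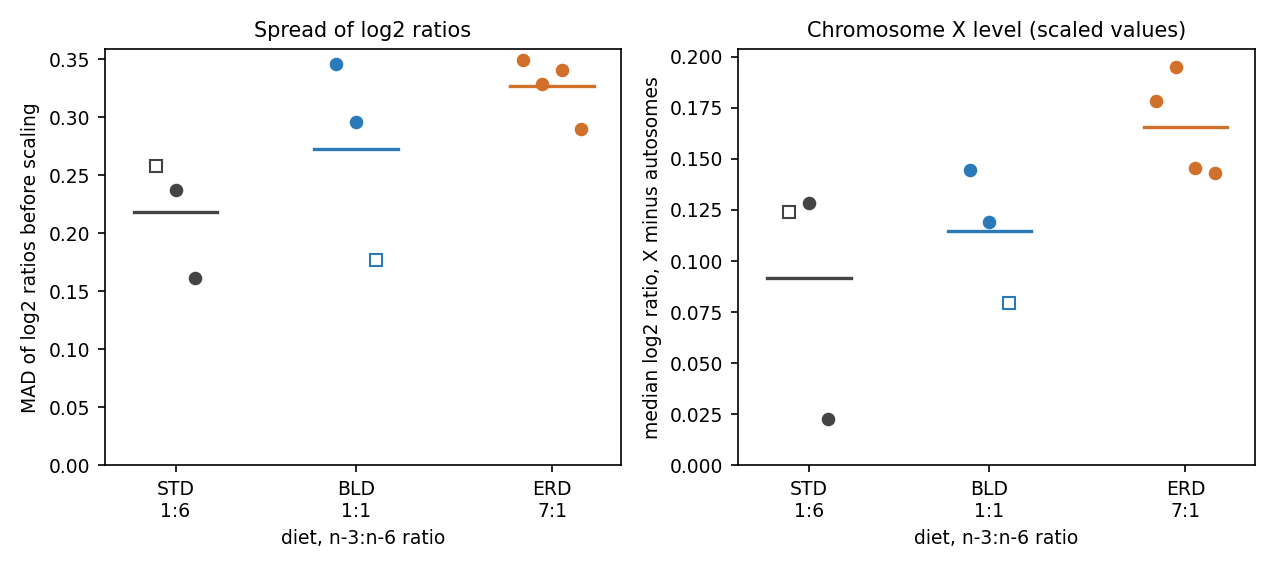
MAD of log2 ratios before scaling (left) and median log2 ratio of chromosome X minus autosomes after scaling (right) for each of the 10 arrays, by diet; bars are diet means and open squares the 2 arrays of the shared slide. On both axes every ERD array lies above every STD array.

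Among the X regions 65.3% of slopes were rising, against 51.6% elsewhere. At an unadjusted p under 0.05 there were 29 rising and 6 falling X regions, or 12.9% and 2.67% of them, beside 6.75% and 7.41% over all regions. Without STD replicate 3 these counts were 13 and 4. The X region with the lowest p for a rising slope was chrX:53862851-53863393, at -0.15 ± 0.09 (SD, n = 3) under STD, 0.07 ± 0.14 (SD, n = 3) under BLD and 0.24 ± 0.07 (SD, n = 4) under ERD (adjusted p = 0.179, limma). The opposite direction was seen at chrX:149203757-149204676, whose 6 probes had 0.14 ± 0.02, -0.02 ± 0.07 and -0.16 ± 0.08 in the same order (adjusted p = 0.179, limma). Chromosome 6 had the most uneven split toward falling slopes among the autosomes with their own name, with 46 falling and 21 rising of 408 regions. Chromosomes were not compared by a test.

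The direction of the slope varied with the level of methylation signal. Regions were ranked by their mean on the BLD arrays, which lie near the middle of the ratio scale. In the 904 regions with the highest BLD level, 72.7% of slopes were rising, with 99 rising and 8 falling at an unadjusted p under 0.05. In the 905 with the lowest level 41.5% were rising, with 56 rising and 124 falling. Regions with a high BLD level thus tended toward rising slopes and those with a low level toward falling ones, on values already scaled to a common MAD. The ranking is not neutral between the other diets. BLD arrays had a mean r of 0.692 with ERD arrays and of 0.580 with STD arrays, whose mean r with each other was 0.529. Ranking by BLD can then give such a contrast by itself, so it is a description. The contrast was 60.8% against 46.4% without STD replicate 3 and 58.2% against 50.8% without the shared slide. It was 92.5% against 18.7% with no scaling, and it turned to 78.4% against 85.0% with normexp correction. A related split followed the input signal: among the 2261 regions with the lowest Cy3 signal 11.4% had a falling and 5.62% a rising slope under 0.05, and among the 2260 with the highest 4.96% and 8.81%.

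The number of probes went with the share of regions under 0.05. It was 16.6% of 5552 regions of 3 or 4 probes, 11.04% of 2798 with 5 to 7, 7.79% of 526 with 8 to 10, and 6.06% of 165 with more than 10. Without STD replicate 3 the first and last of these shares were 9.56% and 1.21%. Rising slopes made up 52.1%, 51.5%, 52.3% and 54.5% of all slopes in these classes. Under 0.05, rising and falling regions numbered 448 and 472, 144 and 165, 13 and 28, and 5 and 5.

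**Figure D4:**
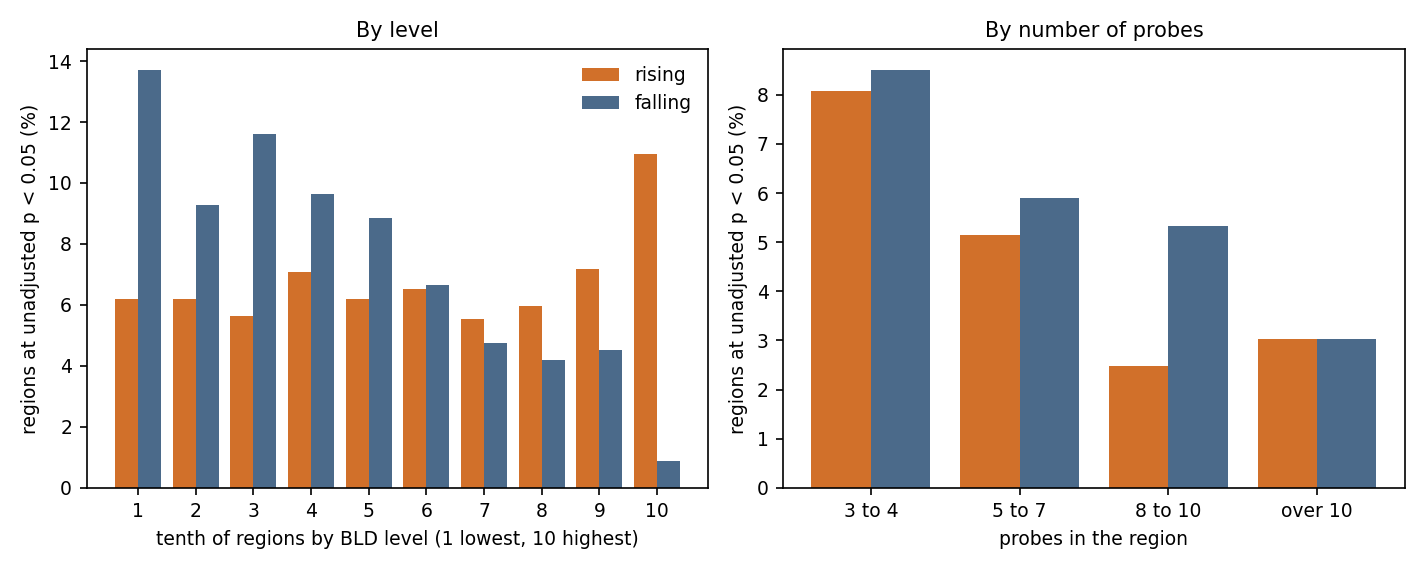
Percentage of regions with an unadjusted trend p under 0.05 (vertical axes), split into rising and falling slopes, by level on the BLD arrays in 10 equal classes from lowest to highest (left) and by number of probes (right). Falling slopes reach 13.7% in the lowest level class and 0.885% in the highest, and rising slopes 6.19% and 10.95%.

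Methylation levels of neighbouring probes went together, and trend slopes hardly did. For 8957 pairs of adjacent probes of a region up to 100 bp apart, the Pearson r was 0.416 for the mean level over the 10 arrays and 0.051 for the slope, and slopes had the same sign in 51.9% of pairs. For the pairs farthest apart, up to 500 bp, the values were 0.218 and 0.021. Between adjacent regions under 1 kb apart, over 243 pairs, r was 0.359 for the level and 0.018 for the slope. These pairs share arrays and base composition, and the values are descriptions across probes and regions. Error can lower r, and how far it did so for the level and for the slope was not tested. The nearest other region had a slope of the same sign for 13 of the 24 named regions, 7 of the 12 rising and 6 of the 12 falling. Over all pairs of adjacent regions the share with the same sign was 48.1% to 52.0% by distance class. The named regions were thus near the share of all regions.

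**Figure D5:**
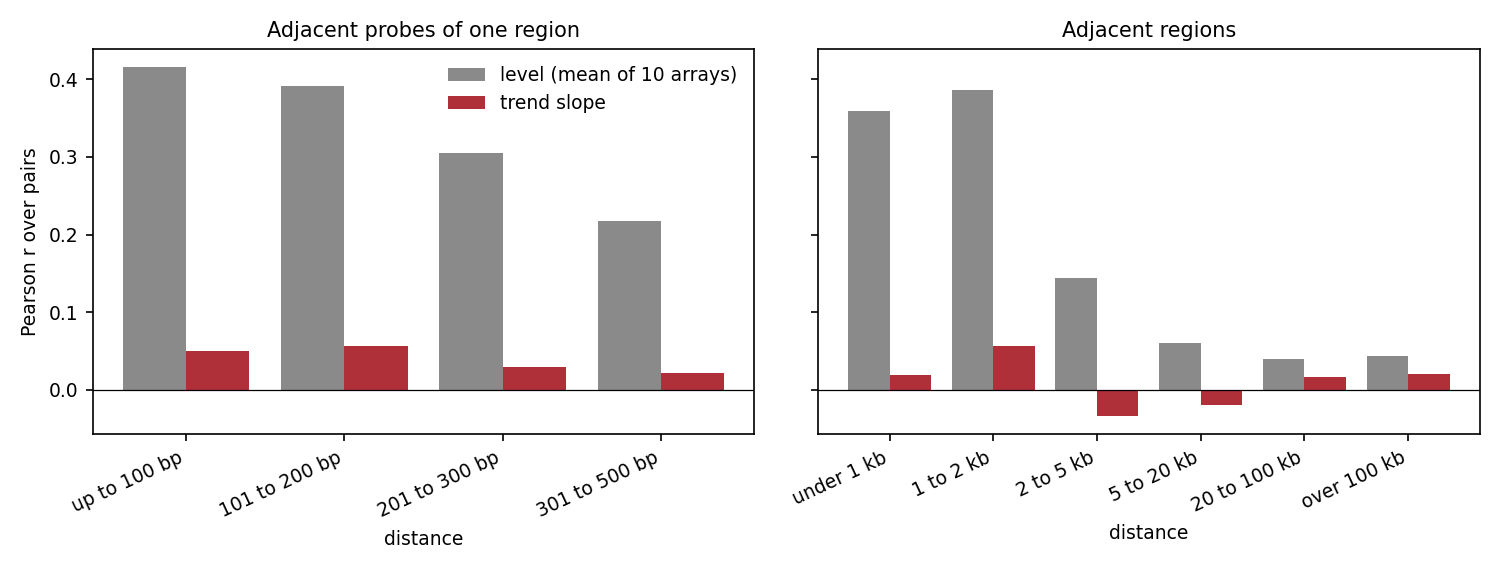
Pearson r (vertical axis) of the mean level over 10 arrays and of the trend slope between adjacent probes of a region (left) and between adjacent regions (right), by distance. The level bars reach 0.416 and the slope bars stay at or below 0.057 in all classes.

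Stretches with several regions under 0.05 held both directions. The highest count lay on chromosome 11 from 96132319 to 96227546, where 5 of 12 regions were under 0.05. Of these 4 were rising and 1 falling, with slopes from -0.041 to 0.082. By share, all 3 regions on chromosome 2 from 35946329 to 35960831 were under 0.05, 2 of them rising. A stretch of 5 regions on chromosome 2 from 168566818 to 168581666 had 4 under 0.05, of which 3 were rising. It contains the third steepest rising region, chr2:168581330-168581666, at -0.40, 0.26 and -0.16 in STD, 0.46, 0.97 and 0.07 in BLD, and 0.31, 1.35, 0.25 and 0.92 in ERD, where ERD overlapped STD. Its slope was 0.145 ± 0.049 (SE, n = 10; adjusted p = 0.243, limma). These stretches were picked after their values were seen.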

How the data were processed

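10 MeDIP-chip arrays were used. Per the file headers, Agilent Feature Extraction 10.7.3.1 gave the spot intensity, while the submitters' processing notes list 9.0. The deposited processed intensity was background-subtracted and dye-normalized by a linear factor, per the file headers. The series value table holds the deposited log10 ratio of Cy5 over Cy3. Pulled-down DNA was Cy5 on every array per the labels, with no dye swap, so probe-specific dye effects remain.

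Of 88411 positioned non-control probes, 51715 (58.5%) were well above background in both channels on all arrays. The log2 ratio was computed from the deposited intensity, outlier spots (0.248% of values) were dropped, arrays were centred on the median and scaled to a common MAD, and probes with starts at most 500 bp apart were averaged in groups of at least 3. Slopes were fitted with limma 3.58.1 (lmFit, eBayes; R 4.3.3) to the 10 arrays without covariates, and p-values were adjusted by Benjamini-Hochberg over all 9041 regions. Per-array measures were given exact two-sided permutation tests over 4200 assignments of arrays to diets. The fit was run on simulated data with planted slopes steeper than any observed and with no slide effect. This checked the code only.

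Regions were named by rule: any past the adjusted threshold, filled to 10 a direction by lowest p with the direction held in every fit without 1 array, plus the 3 steepest a direction under an unadjusted 0.05. Members and lists were chosen with earlier results of these data known. Gene lists and cell type markers were not tested, because no gene names on mm9 were used. Replicates are numbered in accession order.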

Additional observations from a re-analysis of the deposited data

How the results depend on the processing

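Against 0 regions past the adjusted threshold (limma), 4 passed with no scaling, and 1 each after quantile normalization, loess, no filter on background and a minimum of 2 probes; fits without 1 array gave 0 to 5. With neither scaling nor filter 6 passed, all falling, but only 0 to 2 probes of each were well above background on all arrays. The share under an unadjusted 0.05, 14.2%, was 0.763% with normexp (offset 50), 8.72% with the slide as a fixed block, 11.5% with it as a random block, and 7.95% to 20.5% without 1 array. The 1071 regions with BLD between the other diets became 63 with normexp, and 615 to 1655 without 1 array. Without 1 array the MAD slope ran from 0.0154 to 0.0231 and the X slope from 0.0088 to 0.0172, both past the threshold without BLD replicate 3; the Cy5 slope of 0.0050 ran up to 0.0150 and turned to -0.0040 without ERD replicate 4 and to -0.00058 without STD replicate 3.

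For the 24 named regions, 765 refits gave 12 changes of sign. This count does not measure stability. The regions named by lowest p were chosen for a direction held in every fit without 1 array, so those fits could not turn them. A minimum of 2 probes, and an intensity trend with a robust prior, leave each slope as it was. Slopes shrank by over 1.5 times or turned in 24 of 24 with normexp, 15 with the slide as a fixed block, 10 with a filter within 1 diet, 8 with no filter, 4 with no scaling, 3 with the median of probes and 1 with quantile normalization. With the slide as a fixed block, which leaves the shared slide as the only contrast, 10 turned: rising ones to -0.0292, -0.0014, -0.0338, -0.0525, -0.0267 and -0.110, and falling ones to 0.0148, 0.0300, 0.145 and 0.0937. The others were chr2:61643297-61643853 at -0.0024 with normexp and chr19:6984035-6984523 at 0.0020 with no filter. The cause was not tested, except that other settings test other probes or fewer arrays. The fit without the shared slide, the alternatives for level and X, and the joint change of scaling and filter were chosen after seeing the data. No paired analysis was possible because the labels carry no replicate number that pairs arrays across diets. Limits are 3 or 4 arrays a diet, slides that mostly hold 1 diet, and regions of few probes.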
